A study of Homo sapiens with 16 samples.

Results

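The genes described here are 54 genes of mitosis and the kinetochore, chosen by symbol, and each was present among the 20314 genes of the U251 tables and the 20626 genes of the U343 tables. They comprise 4 mitotic kinases (AURKA, PLK1, PLK4, MELK), 4 subunits of the chromosomal passenger complex, 6 cyclins and CDK phosphatases, 6 spindle checkpoint genes, 4 genes of anaphase promotion, 6 inner and 6 outer kinetochore genes, 6 genes of condensin and topoisomerase, 8 spindle assembly genes, 3 genes of the midzone and cytokinesis and the transcription factor FOXM1. All 54 were above the low-count filter in every comparison. The study asked which transcripts miR-137, a microRNA with low levels in glioblastoma, lowers when it is put back into U251 and U343 cells, which are established human glioblastoma lines. By reverse transfection at 25 nM, cells were given either the mimic of miR-137 or a control mimic, so every group carried a transfected mimic, and the time of collection was 48 hours. RNA was measured as total RNA (RNASeq) or as the fraction recovered with antibodies against poly(A)-binding protein (RIPSeq), which holds the polyadenylated messages bound by PABP. There were 2 libraries in each of the 8 groups, 16 in all. U251 and U343 libraries were built with different cDNA kits, so a difference between lines cannot be told apart from a difference between kits. Nothing in the labels says that the 2 libraries of a group came from separate cultures, and p-values measure only the spread between these libraries.

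As background, chromosomes attach to the spindle at kinetochores, protein assemblies built on centromeres that carry the CENP-A histone. The spindle checkpoint holds cells in metaphase until every kinetochore is attached, and the anaphase-promoting complex with CDC20 then marks securin and cyclin B for destruction so that separase can release the sister chromatids. Messages of most of these genes peak in G2 and M phase, and their promoters are known to carry CHR elements (cell cycle genes homology regions) and CCAAT boxes bound by the DREAM and MMB complexes, by FOXM1 and by NF-Y. In bulk RNA, a lower share of dividing cells and less RNA of these genes per cell cannot be told apart.

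Counted reads ranged from 10156675 to 18224061 per library in U251 RNASeq and from 22359794 to 30731476 in U251 RIPSeq. The ranges were 37952273 to 45134766 in U343 RNASeq and 37736206 to 45055184 in U343 RIPSeq. In U251 RNASeq both miR-137 libraries (10260834 and 10156675) were smaller than both control libraries (16886287 and 18224061), so depth there went with the mimic. The 2 control libraries of U251 RIPSeq stood apart from each other, with a median absolute log2 ratio between replicates of 0.675 over all genes, where the other 7 pairs had between 0.0746 and 0.226. Of the glioma markers, VIM had at least 37255 reads and CD44 at least 22012 in every library, whereas S100B had 2 to 31 reads and GFAP 37 to 537 reads in U251. CDK6, a known miR-137 target and the check of the mimic, fell in U251 RNASeq (log2 fold change -3.53, SE 0.17, edgeR adjusted p = 1.62e-09), U343 RNASeq (log2 fold change -2.78, SE 0.14, edgeR adjusted p = 0.00647) and U343 RIPSeq (log2 fold change -3.20, SE 0.12, edgeR adjusted p = 1.71e-06), and measured -3.53 (SE 0.59, edgeR adjusted p = 0.0798) in U251 RIPSeq.

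The mimic carries the sequence of the mature microRNA, shown here so that the seed which pairs with target messages can be read. hsa-miR-137-3p in RefSeq (GRCh38.p14, chr1:98046091-98046113, minus strand), with the seed, bases 2 to 8, in capitals:
hsa-miR-137-3p: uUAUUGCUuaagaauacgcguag

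RefSeq promoters, 250 bases before to 50 bases after a transcription start in GRCh38.p14, were found for 46 of the 54 genes, 60 promoters in all because 9 genes had more than 1. No promoter was given for TTK, UBE2C, BIRC5, AURKA, CENPM, BUB3, FOXM1 and TPX2. The letters TTTGAA, the common form of a CHR element, stood on either strand of 58.3% of the 60 promoters and of 15.2% of the 35116 promoters of all genes. For TTTAAA, the other form searched for, which reads the same on both strands, the shares were 20.0% and 12.2%. For CCAAT on either strand they were 63.3% and 34.6%. Other variants of the CHR element were not searched for. Promoters with CCAAT and one of these CHR forms made up 48.3% of those of the 54 genes and 9.27% of all promoters. A CHR match and a CCAAT match on opposite strands may share bases. These are matches of letters in a window and not shown binding sites. Whether U251 and U343 cells use the annotated starts, that of CENPI among them, was not examined. Promoters of 6 genes follow, 5′ to 3′, with both CHR forms and the CCAAT box in capitals on either strand. CDC20, CCNB2 and PLK1 are genes of the G2 and M phase with both kinds of letters, ESPL1 is the gene with the largest rise in U251 RNASeq, CENPE is among the genes with the largest falls in U343 and lacks CCAAT, and CENPI is a gene with no match.
CDC20, chr1:43358731-43359030, plus strand: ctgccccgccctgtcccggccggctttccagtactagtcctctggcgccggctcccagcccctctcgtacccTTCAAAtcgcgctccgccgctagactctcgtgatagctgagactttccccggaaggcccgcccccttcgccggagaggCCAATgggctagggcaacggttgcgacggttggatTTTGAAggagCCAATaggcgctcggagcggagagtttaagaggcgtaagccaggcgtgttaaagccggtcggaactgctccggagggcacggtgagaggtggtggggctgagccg
CCNB2, chr15:59104896-59105195, plus strand: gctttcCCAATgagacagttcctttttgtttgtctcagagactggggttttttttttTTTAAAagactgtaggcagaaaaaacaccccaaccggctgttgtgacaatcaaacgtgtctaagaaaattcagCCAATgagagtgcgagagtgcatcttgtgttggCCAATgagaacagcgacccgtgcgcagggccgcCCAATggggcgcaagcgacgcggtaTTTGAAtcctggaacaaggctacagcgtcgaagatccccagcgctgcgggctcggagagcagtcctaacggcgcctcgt
PLK1, chr16:23678639-23678938, plus strand: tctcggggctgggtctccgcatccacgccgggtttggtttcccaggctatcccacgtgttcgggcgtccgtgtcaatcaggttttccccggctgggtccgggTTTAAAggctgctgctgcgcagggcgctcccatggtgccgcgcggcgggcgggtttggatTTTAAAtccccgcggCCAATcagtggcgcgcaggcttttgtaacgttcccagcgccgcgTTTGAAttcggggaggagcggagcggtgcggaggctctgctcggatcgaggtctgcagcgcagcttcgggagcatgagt
ESPL1, chr12:53268049-53268348, plus strand: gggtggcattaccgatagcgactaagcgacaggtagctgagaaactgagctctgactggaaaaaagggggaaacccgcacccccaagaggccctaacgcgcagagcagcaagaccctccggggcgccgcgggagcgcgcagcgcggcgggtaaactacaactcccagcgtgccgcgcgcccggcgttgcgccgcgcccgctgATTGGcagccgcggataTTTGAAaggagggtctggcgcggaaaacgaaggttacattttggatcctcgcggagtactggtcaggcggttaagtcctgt
CENPE, chr4:103198294-103198593, minus strand: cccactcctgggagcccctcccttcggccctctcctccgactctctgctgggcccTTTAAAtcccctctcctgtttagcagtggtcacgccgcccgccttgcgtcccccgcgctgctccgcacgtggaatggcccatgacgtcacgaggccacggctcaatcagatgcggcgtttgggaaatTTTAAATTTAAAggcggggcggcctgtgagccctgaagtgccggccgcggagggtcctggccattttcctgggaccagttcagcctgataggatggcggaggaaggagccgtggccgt
CENPI, chrX:101100808-101101107, plus strand: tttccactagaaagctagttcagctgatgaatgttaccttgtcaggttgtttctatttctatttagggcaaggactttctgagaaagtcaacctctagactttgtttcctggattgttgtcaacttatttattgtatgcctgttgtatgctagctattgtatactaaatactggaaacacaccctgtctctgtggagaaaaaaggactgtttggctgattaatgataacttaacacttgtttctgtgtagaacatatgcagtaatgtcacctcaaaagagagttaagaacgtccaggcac

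Of the 46 genes, 37 had TTTGAA or TTTAAA in a promoter and 9 had neither, which does not show that those 9 lack a CHR element. In U343 RNASeq the median log2 fold change with the miR-137 mimic was -1.47 (range -2.13 to -0.51) for the 37 genes with those letters and -1.35 (range -2.00 to -0.60) for the 9 without. In U251 RNASeq the same medians were -0.32 (range -1.25 to 0.50) and -0.37 (range -0.79 to 0.37). The ranges of genes with and without the letters overlapped in both lines, and no test was made of them.

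Reads on the 54 genes together took a smaller share of the library after miR-137 in U343 than after the control mimic. In U343 RNASeq they made up 0.843% and 0.830% of counted reads in the control libraries and 0.326% and 0.315% in the miR-137 libraries. In U343 RIPSeq the shares were 0.662% and 0.665% in control and 0.236% and 0.265% in miR-137 libraries. Control and miR-137 libraries were far apart in both assays of this line. U251 RNASeq had 1.157% and 1.154% in control and 1.074% and 1.047% in miR-137 libraries, a gap that was small beside the one in U343 but did not overlap. In U251 RIPSeq the control libraries differed from each other, with 0.636% and 0.822%, and the miR-137 libraries had 0.612% and 0.607%.

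**Figure D1:**
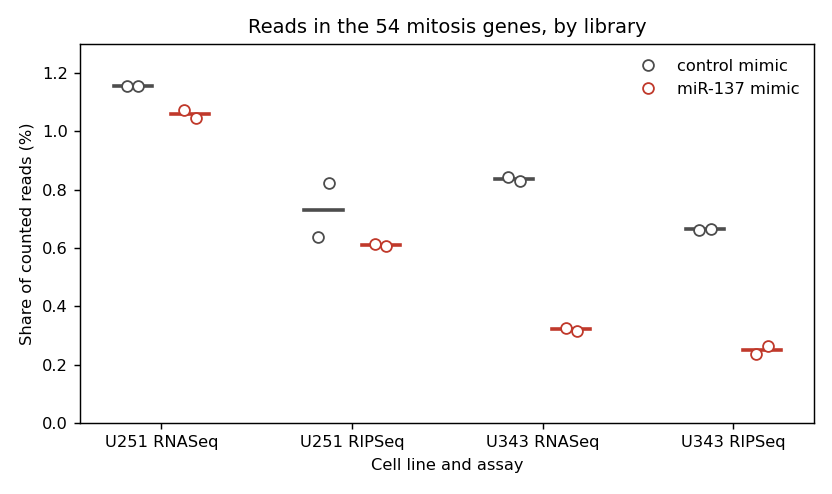
Share of counted reads that fell on the 54 mitosis genes in each library (circles, percent), with the mean of each pair (line), for control mimic (grey) and miR-137 mimic (red). The U343 miR-137 libraries sit between 0.236% and 0.326%, below all U343 control libraries, while the U251 RNASeq groups lie nearer to each other and the U251 RIPSeq control pair is wide.

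In total RNA of U343 cells, 53 of the 54 genes fell with the miR-137 mimic and 0 rose, by edgeR at an adjusted p under 0.05. Over all 15088 genes tested in this comparison, 11.7% fell and 8.31% rose. Over the 54 genes the median log2 fold change was -1.43, against 0.02 for all genes, and 46 of them fell at least 2-fold. Falls of at least 2-fold, here and below, were counted for the 54 genes only. The one gene that did not pass was CKAP5, a microtubule polymerase of the spindle (log2 fold change -0.51, SE 0.12, edgeR adjusted p = 0.0533). CKAP5 measured 399 and 394 CPM (counts scaled to library size, CPM, with TMM factors within the 4 libraries compared) in control and 304 and 252 CPM in miR-137 libraries, which did not overlap. BUB3, a checkpoint protein, and TACC3, a spindle protein that works with CKAP5, had the next smallest falls, at -0.51 and -0.60 on the log2 scale. With only 1 control library in the fit no gene of any kind was called, so without either control replicate 1 or control replicate 2 the count of the 54 genes fell to 0, with 53 and 52 of them at an unadjusted p under 0.05 (18.0% and 17.2% of all genes) and medians of -1.41 and -1.43. The count was 54 without either miR-137 replicate, where 20.3% and 19.3% of all genes fell.

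In total RNA of U251 cells the same genes moved less and in both directions. By edgeR, 26 fell, 2 rose and the other 26 did not pass. Over all 13052 genes tested, 29.0% fell and 28.7% rose. For the 54 genes the log2 fold changes had a median of -0.33, against 0.02 for all genes, and 3 of them fell at least 2-fold: CENPM, CDKN3 and SMC2. The 2 that rose were ESPL1 and INCENP. With upper-quartile scaling, which moved the median of all genes from 0.02 to 0.16, 18 of the genes fell, 5 rose and their median was -0.19, where 23% of all genes fell and 35.2% rose. Without control replicate 2, 15 fell and 0 rose (23.1% and 21.5% of all genes). Without miR-137 replicate 1, 27 fell and 1 rose (26.1% and 24.8% of all genes). In a joint fit with the 4 RIPSeq libraries of U251, which shared their spread, 2 fell and 0 rose, shares below the 9.4% and 11.4% of all genes.

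**Figure D2:**
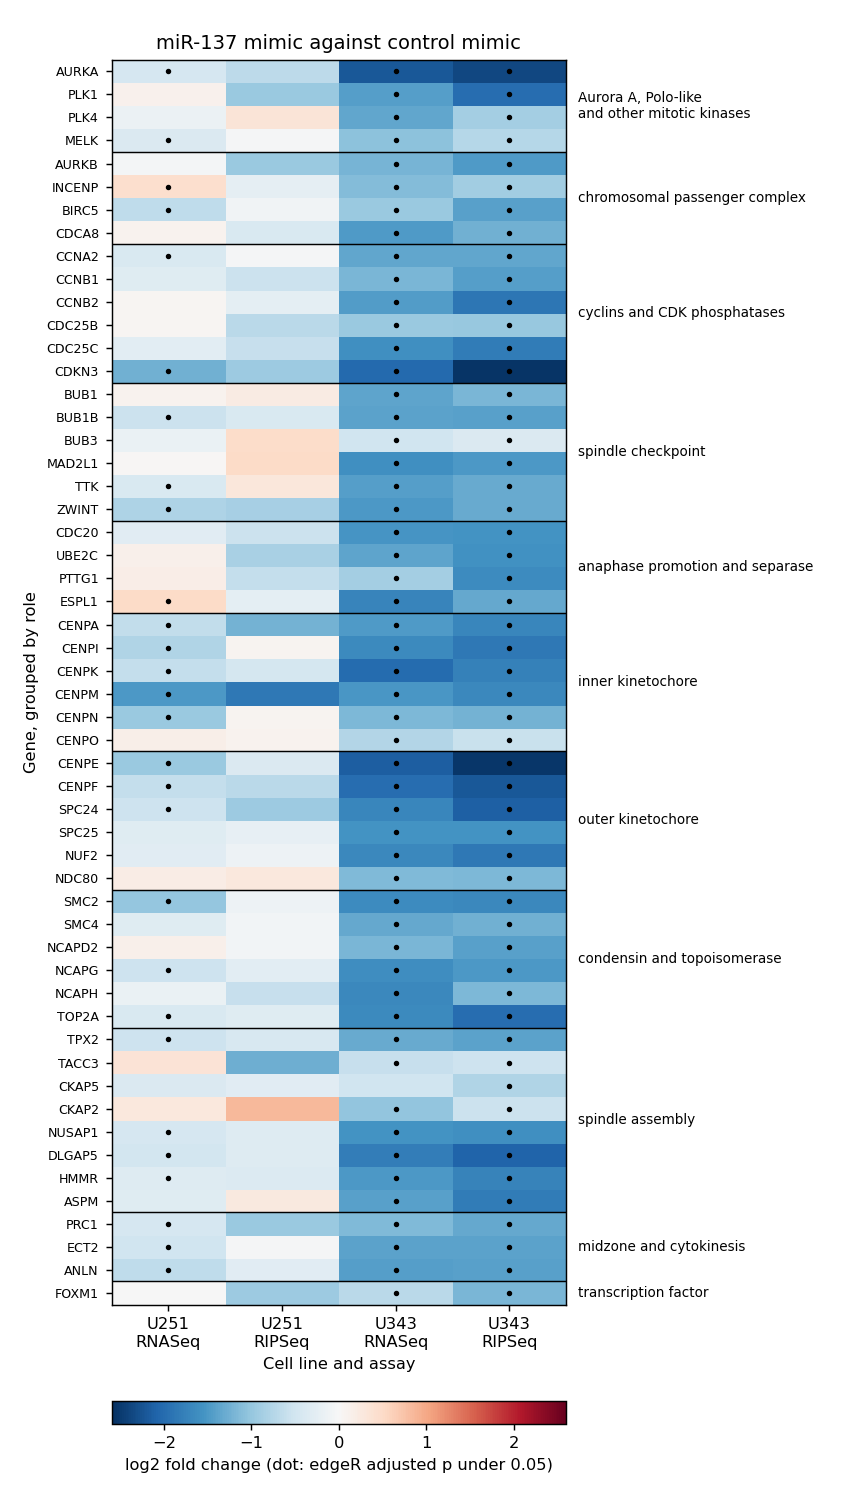
Log2 fold change of each of the 54 genes (rows, grouped by role) with the miR-137 mimic against the control mimic in the 4 experiments (columns), blue for lower and red for higher, with a dot where the edgeR adjusted p was under 0.05. The U343 columns are blue throughout, from -0.51 to -2.19 in RNASeq and from -0.37 to -2.55 in RIPSeq, while the U251 columns are mostly pale and mixed.

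The estimated change in total RNA was more negative in U343 than in U251 for all 54 genes, a count not made over all genes. In a joint edgeR fit of the 8 RNASeq libraries, the interaction of transfection and cell line was below 0 past the threshold for 47 of the 54 genes and above 0 for 0 of them, with a median of -1.12. Over all 15550 genes tested, 12.7% had an interaction below 0 and 12.5% one above 0. The 7 genes that did not pass were MELK, BIRC5, BUB3, CENPM, CENPN, TACC3 and CKAP5. CENPM, a subunit of the inner kinetochore (hg18 chr22:40664687-40673094), had 38.3 and 46.5 CPM in control and 13.8 and 16.2 CPM in miR-137 libraries of U251 (log2 fold change -1.50, SE 0.16, edgeR adjusted p = 4.32e-06). In U343 it had 33.0 and 36.5 CPM in control and 12.04 and 12.4 CPM in miR-137 libraries (log2 fold change -1.51, SE 0.11, edgeR adjusted p = 0.00711). CENPM thus fell in both lines with no overlap of groups, and the difference between the falls was -0.02 on the log2 scale (SE 0.21, edgeR adjusted p = 0.963). Of the 54 genes, 26 fell in total RNA of both lines and 27 fell in U343 alone. Over all genes tested, 29.0% fell in U251 RNASeq and 11.7% in U343 RNASeq. Genes lower in both lines were not counted over all genes.

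**Figure D3:**
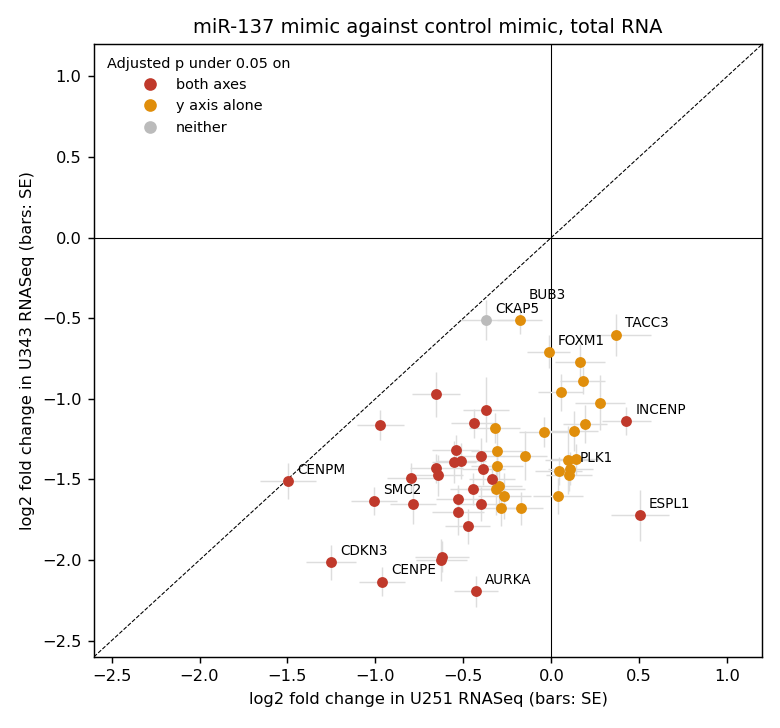
Log2 fold change with the miR-137 mimic in U251 RNASeq (x axis) and U343 RNASeq (y axis) for the 54 genes, with bars for the standard error and the line of equal change dashed. All points lie below the line, CENPM (-1.50 and -1.51) is nearest to it, and ESPL1 (0.50 and -1.72) is farthest.

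AURKA (hg18 chr20:54377852-54400758) encodes Aurora A, the kinase of centrosomes and spindle poles. Its level in U343 RNASeq was 104 and 111 CPM in control and 22.6 and 24.2 CPM in miR-137 libraries, a 4.58-fold fall (log2 fold change -2.19, SE 0.10, edgeR adjusted p = 0.00647) and the largest of the 54 genes in this comparison. In U251 RNASeq it was 97.8 and 99.0 CPM in control and 70.4 and 76.0 CPM in miR-137 libraries (log2 fold change -0.43, SE 0.12, edgeR adjusted p = 0.00983). The groups did not overlap in either line, and the fall was deeper in U343 (interaction -1.78, SE 0.15, edgeR adjusted p = 0.000469). The U251 fall of AURKA did not pass without control replicate 2 (edgeR adjusted p = 0.0572) or with upper-quartile scaling (edgeR adjusted p = 0.0592). PLK1, the Polo-like kinase that drives mitotic entry and spindle assembly, had 105 and 111 CPM in control and 42.2 and 37.6 CPM in miR-137 libraries of U343 (log2 fold change -1.43, SE 0.10, edgeR adjusted p = 0.00687). In U251 PLK1 had 125 and 118 CPM in control and 123 and 139 CPM in miR-137 libraries, which overlapped (log2 fold change 0.11, SE 0.13, edgeR adjusted p = 0.488). PLK4, the kinase of centriole duplication, fell in U343 by 1.35 on the log2 scale and measured -0.15 in U251 (edgeR adjusted p = 0.324). MELK fell in both lines, by 0.37 in U251 and 1.07 in U343 on the log2 scale.

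Of the chromosomal passenger complex, which corrects faulty attachments and later steers cytokinesis, all 4 subunits fell in U343 RNASeq (range -1.47 to -0.97 on the log2 scale), and in U251 RNASeq BIRC5 fell, INCENP rose and AURKB and CDCA8 did not pass. AURKB, the Aurora B kinase subunit, had 67.7 and 73.9 CPM in control and 30.9 and 30.4 CPM in miR-137 libraries of U343 (log2 fold change -1.21, SE 0.10, edgeR adjusted p = 0.00724). In U251 it had 59.0 and 59.6 CPM in control and 51.4 and 63.6 CPM in miR-137 libraries, with overlap (log2 fold change -0.04, SE 0.14, edgeR adjusted p = 0.805). INCENP, the scaffold of the complex (hg18 chr11:61648021-61677211), moved in opposite directions in the 2 lines. Levels in U251 were 60.1 and 52.4 CPM in control and 81.5 and 69.8 CPM in miR-137 libraries (log2 fold change 0.43, SE 0.14, edgeR adjusted p = 0.0164). Levels in U343 were 125 and 125 CPM in control and 56.8 and 56.6 CPM in miR-137 libraries (log2 fold change -1.14, SE 0.08, edgeR adjusted p = 0.00711). The groups did not overlap in either line, and the interaction was -1.57, SE 0.17, edgeR adjusted p = 0.00121. The U251 rise of INCENP did not pass without control replicate 2 (edgeR adjusted p = 0.168) or without miR-137 replicate 1 (edgeR adjusted p = 0.083). BIRC5, which encodes survivin, fell by 0.65 in U251 and 0.97 in U343 on the log2 scale. Its span shares 10463 bases with EPR1, annotated on the opposite strand, and without strand in the counting reads of the 2 genes cannot be told apart. The spans of PLK1, CCNA2, BUB1B, CENPN, CENPO, SMC4, NCAPD2, NCAPG, CKAP5 and ANLN also share bases with another gene, from 63 bases for PLK1 to 3709 for BUB1B.

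All 6 cyclins and CDK phosphatases fell in U343 RNASeq, with log2 fold changes from -2.02 to -0.96. In U251 RNASeq only CCNA2 (-0.40) and CDKN3 fell, by edgeR, and CCNB1, CCNB2, CDC25B and CDC25C did not pass. CDKN3, a phosphatase that acts on CDKs (hg18 chr14:53933423-53956682), had 34.1 and 35.2 CPM in control and 8.74 and 8.42 CPM in miR-137 libraries of U343, a 4.04-fold fall (log2 fold change -2.02, SE 0.11, edgeR adjusted p = 0.00647). The U251 values were 64.9 and 80.0 CPM in control and 30.0 and 30.8 CPM in miR-137 libraries, a 2.38-fold fall (log2 fold change -1.25, SE 0.14, edgeR adjusted p = 7.93e-06). CDKN3 was thus among the genes with the largest falls in both lines, with the interaction at -0.77, SE 0.18, edgeR adjusted p = 0.018. CCNB1, the cyclin B1 partner of CDK1, had 202 and 192 CPM in control and 85.2 and 88.6 CPM in miR-137 libraries of U343 (log2 fold change -1.18, SE 0.09, edgeR adjusted p = 0.00729). In U251 it had 419.6 and 471 CPM in control and 319.6 and 392.1 CPM in miR-137 libraries (log2 fold change -0.32, SE 0.15, edgeR adjusted p = 0.0731). The U251 groups of CCNB1 did not overlap, but their gap did not pass the threshold. CDC25B, a phosphatase that activates CDK1, had the smallest fall of these genes in U343.

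Of the spindle checkpoint genes, BUB1, BUB1B, BUB3, MAD2L1, TTK and ZWINT, all 6 fell in U343 RNASeq and 3 fell in U251 RNASeq (BUB1B, TTK and ZWINT). BUB1B, which encodes the checkpoint inhibitor BUBR1, had 107 and 105 CPM in control and 44.4 and 36.3 CPM in miR-137 libraries of U343 (log2 fold change -1.39, SE 0.13, edgeR adjusted p = 0.00842). Levels in U251 were 141 and 139.8 CPM in control and 99.7 and 91.7 CPM in miR-137 libraries (log2 fold change -0.55, SE 0.12, edgeR adjusted p = 0.00184). Neither line showed overlap for BUB1B. Its span shares 3709 bases with PAK6. MAD2L1 encodes MAD2, the protein that holds CDC20 in check. It had 70.5 and 70.6 CPM in control and 21.5 and 24.9 CPM in miR-137 libraries of U343 (log2 fold change -1.60, SE 0.11, edgeR adjusted p = 0.00667). The U251 values were 76.8 and 89.8 CPM in control and 76.3 and 94.8 CPM in miR-137 libraries, which overlapped (log2 fold change 0.04, SE 0.14, edgeR adjusted p = 0.838). ZWINT, a kinetochore linker of the checkpoint, had the largest fall of the group in U251, -0.80 on the log2 scale, and BUB3 had the smallest in U343, -0.51.

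Of the anaphase genes, CDC20, UBE2C, PTTG1 and ESPL1 fell in U343 RNASeq, and in U251 RNASeq 0 of the 4 fell and ESPL1 rose. CDC20, the activator of the anaphase-promoting complex, had 196 and 207 CPM in control and 72.7 and 65.9 CPM in miR-137 libraries of U343 (log2 fold change -1.54, SE 0.10, edgeR adjusted p = 0.00647). In U251 it had 196 and 221 CPM in control and 163 and 177 CPM in miR-137 libraries (log2 fold change -0.30, SE 0.13, edgeR adjusted p = 0.0644). The groups did not overlap in either line. ESPL1 encodes separase, the protease that cuts cohesin (hg18 chr12:51948350-51973694). In U343 it had 80.7 and 83.4 CPM in control and 21.5 and 28.2 CPM in miR-137 libraries (log2 fold change -1.72, SE 0.16, edgeR adjusted p = 0.00842). Levels in U251 were 43.4 and 29.9 CPM in control and 53.2 and 50.8 CPM in miR-137 libraries (log2 fold change 0.50, SE 0.17, edgeR adjusted p = 0.0185). The control libraries of U251 differed more from each other than the miR-137 libraries did, and the rise did not pass without control replicate 2 (log2 fold change 0.25, edgeR adjusted p = 0.290). ESPL1 had the largest interaction of the 54 genes in total RNA, -2.24, SE 0.27, edgeR adjusted p = 0.0016. UBE2C, the ubiquitin-conjugating enzyme of the complex, and PTTG1, securin, fell by 1.38 and 0.89 in U343 and measured 0.14 and 0.18 in U251, on the log2 scale.

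Inner kinetochore genes were the group with the lowest median in U251 RNASeq, -0.72 on the log2 scale, with 5 of 6 lower. CENPA, the centromeric histone, fell by 0.65 in U251 and 1.47 in U343. CENPI, CENPK, CENPM and CENPN also fell in both lines, whereas CENPO fell in U343 (-0.77) and measured 0.16 in U251 (edgeR adjusted p = 0.342). The largest inner kinetochore fall in U343 was that of CENPK, which dropped from 23.02 and 23.5 CPM to 5.48 and 6.13 CPM (log2 fold change -2.00, SE 0.13, edgeR adjusted p = 0.00647). At the outer kinetochore, which binds microtubules, all 6 genes fell in U343 RNASeq and CENPE, CENPF and SPC24 fell in U251 RNASeq. CENPE, a kinesin that moves chromosomes to the metaphase plate (hg18 chr4:104246412-104339015), had 124 and 129.8 CPM in control and 28.4 and 29.5 CPM in miR-137 libraries of U343, a 4.39-fold fall (log2 fold change -2.13, SE 0.09, edgeR adjusted p = 0.00647). The U251 values were 281 and 269 CPM in control and 150.1 and 132 CPM in miR-137 libraries, a 1.95-fold fall (log2 fold change -0.96, SE 0.13, edgeR adjusted p = 3.74e-05). The groups were well apart in both lines, and the fall was deeper in U343 (interaction -1.18, SE 0.17, edgeR adjusted p = 0.00264). NDC80, the microtubule-binding subunit that names the NDC80 complex, had 47.2 and 47.9 CPM in control and 19.8 and 22.9 CPM in miR-137 libraries of U343 (log2 fold change -1.16, SE 0.12, edgeR adjusted p = 0.00943). In U251 it had 83.9 and 90.3 CPM in control and 94.8 and 104 CPM in miR-137 libraries (log2 fold change 0.19, SE 0.13, edgeR adjusted p = 0.214). NUF2, SPC24 and SPC25, the other subunits of that complex, fell by 1.67, 1.70 and 1.56 in U343 on the log2 scale.

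The condensin genes SMC2, SMC4, NCAPD2, NCAPG and NCAPH and TOP2A, the topoisomerase that untangles sister DNA, fell in U343 RNASeq, and SMC2, NCAPG and TOP2A fell in U251 RNASeq. SMC2, an ATPase of condensin (hg18 chr9:105896362-105943521), had 105.98 and 110.4 CPM in control and 34.4 and 35.4 CPM in miR-137 libraries of U343 (log2 fold change -1.63, SE 0.09, edgeR adjusted p = 0.00647). Levels in U251 were 185 and 182 CPM in control and 98.6 and 84.4 CPM in miR-137 libraries, a 2.01-fold fall (log2 fold change -1.01, SE 0.13, edgeR adjusted p = 2.42e-05). Its partner SMC4 measured -0.31 in U251 (edgeR adjusted p = 0.0922) and fell by 1.33 in U343. TOP2A had 607 and 575 CPM in control and 199 and 176 CPM in miR-137 libraries of U343 (log2 fold change -1.65, SE 0.11, edgeR adjusted p = 0.00647). The U251 values were 579 and 549.6 CPM in control and 465 and 390.2 CPM in miR-137 libraries (log2 fold change -0.40, SE 0.14, edgeR adjusted p = 0.0269). TOP2A did not overlap between groups in either line, but its U251 fall did not pass without control replicate 1, control replicate 2 or miR-137 replicate 2 (edgeR adjusted p = 0.132, 0.0748 and 0.110).

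Of the 8 spindle assembly genes, 7 fell in U343 RNASeq and 4 fell in U251 RNASeq (TPX2, NUSAP1, DLGAP5 and HMMR). TPX2, the activator of Aurora A on spindle microtubules, had 222 and 229 CPM in control and 90.9 and 90.5 CPM in miR-137 libraries of U343 (log2 fold change -1.32, SE 0.09, edgeR adjusted p = 0.00652). In U251 it had 548 and 589.8 CPM in control and 387 and 394 CPM in miR-137 libraries (log2 fold change -0.54, SE 0.13, edgeR adjusted p = 0.00359). TPX2 did not overlap between groups in either line. DLGAP5, a microtubule bundling protein, had the largest fall of the group in U343, -1.79 on the log2 scale. The midzone and cytokinesis genes PRC1, ECT2 and ANLN fell in both lines, by 0.44, 0.51 and 0.65 in U251 and by 1.15, 1.39 and 1.43 in U343. FOXM1, the transcription factor of G2 and M phase genes (hg18 chr12:2837110-2856564), had 175 and 186 CPM in control and 105.6 and 115 CPM in miR-137 libraries of U343 (log2 fold change -0.71, SE 0.10, edgeR adjusted p = 0.0184). Levels in U251 were 131 and 128 CPM in control and 126 and 131 CPM in miR-137 libraries, which overlapped (log2 fold change -0.01, SE 0.12, edgeR adjusted p = 0.933). The FOXM1 fall in U343 was smaller than the median of the 54 genes there.

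**Figure D4:**
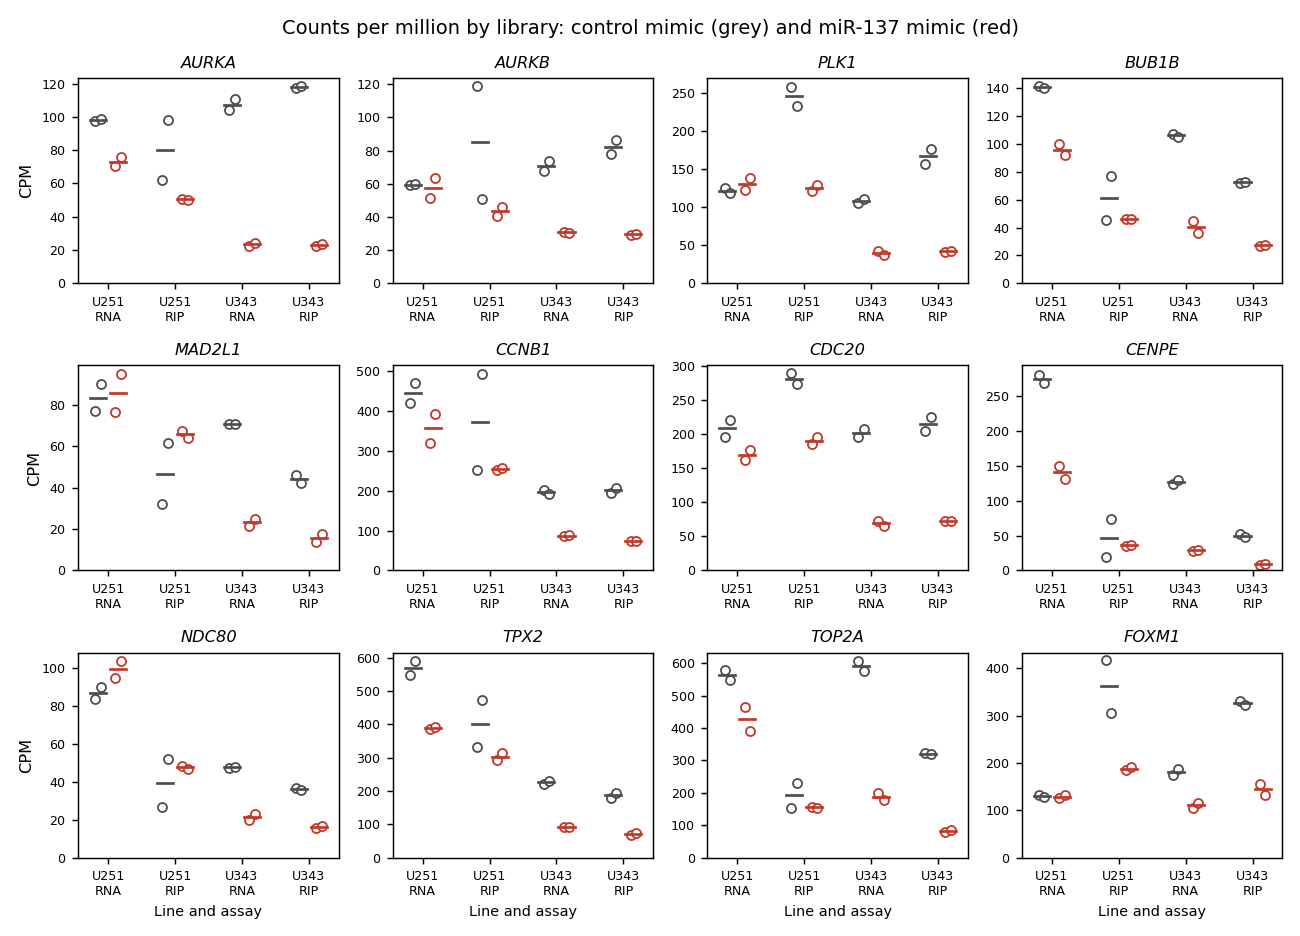
Counts scaled to library size (CPM) of 12 genes in every library (circles) with the mean of each pair (line), for control mimic (grey) and miR-137 mimic (red). Axes start at 0. In U343 the miR-137 libraries lie below the control libraries in each panel and both assays, whereas in U251 PLK1, AURKB, MAD2L1 and FOXM1 overlap in RNASeq, and in RIPSeq the control pair is wide for CENPE, MAD2L1 and AURKB and closer for PLK1.

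In PABP-bound RNA of U343 cells, 54 of the 54 genes fell and 0 rose by edgeR. Over all 14866 genes tested, 27.8% fell and 28.5% rose. The median log2 fold change was -1.42 against 0.0049 for all genes, and 45 of the 54 genes fell at least 2-fold. The count was 54 without any 1 of the 4 libraries, where 21.6%, 22.4%, 23.8% and 22.9% of all genes fell. CDKN3 had the largest fall, from 53.2 and 54.6 CPM in control to 10.3 and 8.12 CPM in miR-137 libraries (log2 fold change -2.55, SE 0.12, edgeR adjusted p = 4.84e-06). CENPE followed, with 51.9 and 47.4 CPM in control and 7.89 and 9.40 CPM in miR-137 libraries (log2 fold change -2.52, SE 0.12, edgeR adjusted p = 3.73e-06). AURKA came next, with 118 and 118 CPM in control and 22.3 and 23.7 CPM in miR-137 libraries (log2 fold change -2.36, SE 0.08, edgeR adjusted p = 1.18e-06). These were also the genes with the largest falls in total RNA of U343, and in each of them the PABP-bound levels of the groups were well apart. The outer kinetochore had the lowest median of the roles here, -1.99, with SPC24 at -2.11 and CENPF, a large kinetochore protein, at -2.21. BUB3 had the smallest fall, from 84.7 and 92.1 CPM to 67.2 and 69.9 CPM (log2 fold change -0.37, SE 0.08, edgeR adjusted p = 0.0069).

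Of the remaining genes shown by library in U343 PABP-bound RNA, PLK1 had 157 and 177 CPM in control and 41.6 and 42.4 CPM in miR-137 libraries (log2 fold change -1.99, SE 0.09, edgeR adjusted p = 4.23e-06). TOP2A had 321 and 319 CPM in control and 77.8 and 84.6 CPM in miR-137 libraries (log2 fold change -1.98, SE 0.09, edgeR adjusted p = 4.01e-06). CDC20 had 205 and 225 CPM in control and 73.3 and 72.7 CPM in miR-137 libraries (log2 fold change -1.56, SE 0.09, edgeR adjusted p = 9.88e-06). In each of these the miR-137 libraries were below both control libraries. AURKB, BUB1B, MAD2L1, CCNB1, NDC80 and TPX2 had log2 fold changes of -1.48, -1.40, -1.49, -1.43, -1.18 and -1.39, none with overlap between groups. FOXM1 went from 330.2 and 321 CPM to 155 and 133 CPM (log2 fold change -1.18, SE 0.10, edgeR adjusted p = 6.86e-05).

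Whether PABP-bound RNA changed more or less than total RNA was tested as the interaction of transfection and assay. In U343 the interaction passed the threshold for 0 of the 54 genes in either direction by edgeR, where 0.0% of all 15413 genes were below 0 and 0.00649% above it. At an unadjusted p under 0.05 there were 12 of the 54 genes, near the 17.6% of all genes, and DESeq2 called 1 below 0, where it called 1.17% of all genes. Estimates ran from -0.75 for PTTG1 (SE 0.10, edgeR adjusted p = 0.141) to 0.51 for NCAPH (SE 0.17, edgeR adjusted p = 0.219), with a median of -0.05. PTTG1, securin, fell by 0.89 in total and 1.64 in PABP-bound RNA, and PLK1 by 1.43 and 1.99 on the log2 scale. NCAPH, a condensin subunit, fell by 1.68 in total and 1.17 in PABP-bound RNA. Both named extremes were chosen after their values were seen. Without miR-137 replicate 2 of U343 RNASeq, 6 genes had an interaction below 0 and 6 above 0, near the background of 9.45% and 10.4% of all genes.

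In PABP-bound RNA of U251 cells, edgeR called 0 of the 54 genes lower and 0 higher, where 0.263% of all 14087 genes fell and 0.944% rose. At an unadjusted p under 0.05 there were 7 of the 54 genes, a lower share than the 20.1% of all genes, and DESeq2 called 1 lower, where it called 1.64% of all genes. The median log2 fold change was -0.32 with 43 of the 54 estimates below 0, a count not set here beside one over all genes. The 2 control libraries were far apart for many of these genes. CENPE had 19.7 and 73.2 CPM in control and 35.0 and 36.8 CPM in miR-137 libraries (log2 fold change -0.37, SE 0.64, edgeR adjusted p = 0.79). MAD2L1 had 31.9 and 61.6 CPM in control and 67.5 and 63.8 CPM in miR-137 libraries (log2 fold change 0.49, SE 0.39, edgeR adjusted p = 0.543). AURKB had 119 and 50.8 CPM in control and 40.7 and 45.9 CPM in miR-137 libraries (log2 fold change -0.97, SE 0.47, edgeR adjusted p = 0.336). Control replicate 1 was the lower library for CENPE and MAD2L1 and the higher one for AURKB, while the miR-137 libraries were close to each other for all 3 genes. The control libraries of PLK1 and PRC1 were closer to each other. PLK1 had 258 and 234 CPM in control and 122 and 129 CPM in miR-137 libraries (log2 fold change -0.97, SE 0.22, edgeR adjusted p = 0.122). PRC1, chosen after its values were seen, had 429 and 473 CPM in control and 231 and 229 CPM in miR-137 libraries (log2 fold change -0.97, SE 0.20, edgeR adjusted p = 0.109).

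Which control library was kept set the result in U251 PABP-bound RNA. Without control replicate 1, 46 of the 54 genes were lower and 2 higher, where 35.3% of all genes were lower and 32.8% higher, and the median was -0.60. Without control replicate 2, 20 were lower and 26 higher, where 34.2% of all genes were lower and 40.2% higher, and the median was 0.12. CENPM, the gene with the lowest estimate with all libraries, had 105 and 51.4 CPM in control and 22.6 and 20.5 CPM in miR-137 libraries (log2 fold change -1.86, SE 0.42, edgeR adjusted p = 0.126). The interaction of transfection and assay in U251 passed for 0 of the 54 genes in either direction by edgeR, where 0.0281% of all 14210 genes were below 0 and 0.106% above it, with 8 of the 54 at an unadjusted p under 0.05 (18.9% of all genes) and 1 called below 0 by DESeq2 (1.68% of all genes). Without control replicate 1 of U251 RIPSeq it was below 0 for 6 and above 0 for 1 of the genes, where the shares of all genes were 8.53% and 11.6%. Without control replicate 2 it was below 0 for 13 and above 0 for 29, where those shares were 25.7% and 32.4%.

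Between the lines, the change in PABP-bound RNA was more negative in U343 past the threshold for 7 of the 54 genes and less negative for 0, with a median interaction of -1.17. Over all 15959 genes tested, 1.22% had an interaction below 0 and 2.06% one above 0. The 7 genes were AURKA, BIRC5, CCNB2, CENPF, SPC24, NCAPD2 and TOP2A. AURKA in U251 PABP-bound RNA had 62.2 and 98.3 CPM in control and 50.5 and 50.3 CPM in miR-137 libraries (log2 fold change -0.67, SE 0.32, edgeR adjusted p = 0.329), and its interaction was -1.64, SE 0.31, edgeR adjusted p = 0.0389. TOP2A had 153 and 231 CPM in control and 156 and 154 CPM in miR-137 libraries of U251 (log2 fold change -0.31, SE 0.29, edgeR adjusted p = 0.608), and its interaction was -1.62, SE 0.28, edgeR adjusted p = 0.0328. AURKA did not overlap between groups in U251, while TOP2A did. With the replicate number as a block the count was 0 (0.338% of all genes), and AURKA and TOP2A did not pass (0.0695 and 0.0615, edgeR adjusted p). The count rested on the libraries in the fit. It was 50 without control replicate 1 and 47 without control replicate 2 of U251, where 14.9% and 26.9% of all genes were below 0. It was 0 without any 1 of the other 6 libraries, where 0.00581%, 0.00583%, 0.00591% or 0.00592% of all genes were below 0.

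In control cells, the share of each message in PABP-bound RNA was compared with its share in total RNA. In U343, 20 of the 54 genes were lower in PABP-bound RNA and 12 were higher by edgeR, where 24.2% of all 14878 genes were lower and 24.4% higher. HMMR, a spindle protein (hg18 chr5:162820095-162851527), had 87.6 and 86.6 CPM in total RNA and 37.6 and 34.1 CPM in PABP-bound RNA (log2 ratio -1.28, SE 0.08, edgeR adjusted p = 3.76e-05). CENPE had 120.2 and 126 CPM in total RNA and 54.1 and 49.4 CPM in PABP-bound RNA (log2 ratio -1.25, SE 0.08, edgeR adjusted p = 4.25e-05). ASPM, a spindle pole protein, was close to them, with a log2 ratio of -1.24. At the other end, CDC25B had 84.5 and 97.0 CPM in total RNA and 197 and 215 CPM in PABP-bound RNA (log2 ratio 1.18, SE 0.09, edgeR adjusted p = 9.54e-05). FOXM1 had 169 and 180.4 CPM in total RNA and 345 and 335 CPM in PABP-bound RNA (log2 ratio 0.96, SE 0.08, edgeR adjusted p = 9.36e-05). HMMR, CENPE, CDC25B and FOXM1 did not overlap between assays. By role, 4 of 6 outer kinetochore genes were lower and 1 higher. Of condensin and topoisomerase genes 4 of 6 were lower, and of spindle assembly genes 5 of 8, with 0 higher in either. Of mitotic kinases 3 of 4 were higher and 1 lower, and of cyclins and CDK phosphatases 3 of 6 were higher and 0 lower. Roles were not tested as sets. Without control replicate 1 of U343 RNASeq, 13 genes were lower and 8 higher (16.7% and 17.6% of all genes).

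In U251 control cells 5 of the 54 genes were lower in PABP-bound RNA and 1 was higher by edgeR, where 6.14% of all 13242 genes were lower and 7.87% higher. The 5 genes, ASPM, CENPE, CENPF, CKAP5 and TOP2A, were also among those lower in U343. ASPM (hg18 chr1:195319880-195382447) had 571 and 531 CPM in total RNA and 36.2 and 124 CPM in PABP-bound RNA (log2 ratio -2.78, SE 0.60, edgeR adjusted p = 0.0356). CENPE had 253 and 239 CPM in total RNA and 20.1 and 70.8 CPM in PABP-bound RNA (log2 ratio -2.44, SE 0.61, edgeR adjusted p = 0.0464). FOXM1, the gene that was higher, had 118 and 114 CPM in total RNA and 426 and 296 CPM in PABP-bound RNA (log2 ratio 1.63, SE 0.34, edgeR adjusted p = 0.0339). The assays did not overlap for ASPM, CENPE or FOXM1, although the PABP-bound libraries differed from each other by more than the total RNA libraries did. The log2 ratios had the same sign in both lines for 38 of the 54 genes, a count not made over all genes. Without control replicate 1 of U251 RIPSeq 16 genes were lower and 10 higher (27.0% and 28.0% of all genes), and without control replicate 2 of U251 RIPSeq 36 were lower and 14 higher (37.1% and 38.8% of all genes). Leaving out either control library of U251 RNASeq left 1 gene lower and 0 higher, where 1.16% of all genes were lower and 0.571% higher without replicate 1 and 1.22% and 0.268% without replicate 2, and the calls of CENPE and FOXM1 were lost (edgeR adjusted p = 0.124 and 0.496 without replicate 1, and 0.115 and 0.531 without replicate 2).

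**Figure D5:**
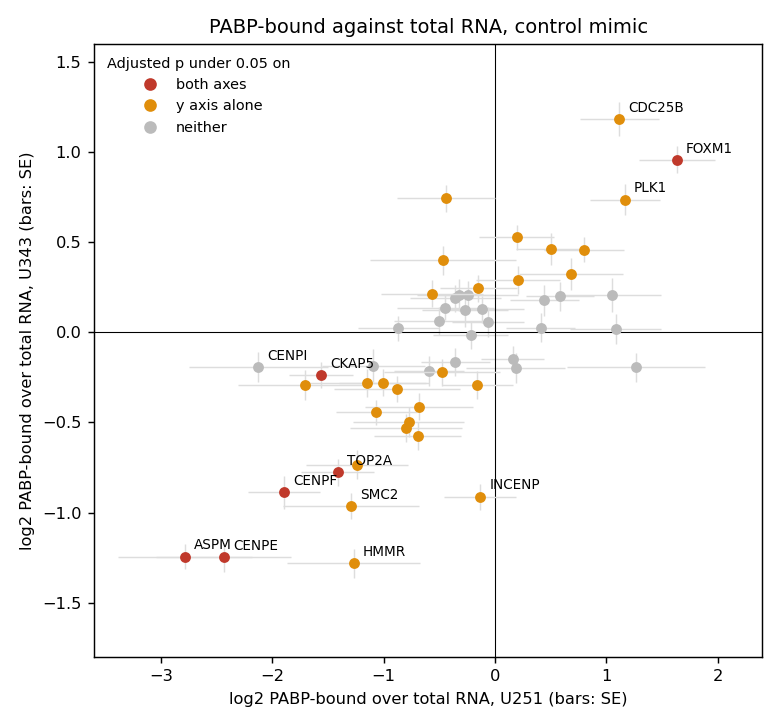
Log2 ratio of PABP-bound to total RNA in control cells of U251 (x axis) and U343 (y axis) for the 54 genes, with bars for the standard error and colours for the edgeR adjusted p under 0.05. ASPM (-2.78 and -1.24) and CENPE (-2.44 and -1.25) lie at the lower left and FOXM1 (1.63 and 0.96) at the upper right.

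Related genes were counted in the same fits, to be read beside the shares of all genes, which were 29.0% lower and 28.7% higher in U251 RNASeq, 11.7% and 8.31% in U343 RNASeq and 27.8% and 28.5% in U343 RIPSeq. Of 78 other kinetochore, checkpoint, APC/C, cohesin and condensin genes, 77 were tested in U343 RNASeq, of which 48 fell and 0 rose (median -0.81). In U251 RNASeq 36 of 76 fell and 7 rose (median -0.30). SKA2, a subunit of the SKA complex that couples kinetochores to microtubules, fell in both lines (log2 fold change -2.31 in U251 and -2.07 in U343), and so did CDK1, the mitotic kinase of cyclin B (-0.55 and -1.70), both chosen after their values were seen. Of 48 DNA replication genes, 43 of 48 fell in U343 RNASeq (median -1.36) and 34 of 47 in U251 RNASeq, where 1 rose (median -0.69). Of the 12 subunits of DREAM and MMB, the complexes that bind CHR elements, 6 of 12 fell and 0 rose in U343 RNASeq (median -0.46), and 5 of 11 fell and 3 rose in U251 RNASeq (median -0.33). MYBL2, the MYB subunit of MMB, also named after its values were seen, fell by 1.98 in U251 and 0.98 in U343 on the log2 scale. In PABP-bound RNA of U343, 56 of 77 of the other kinetochore list fell and 5 rose, 45 of 48 replication genes fell and 0 rose, and 8 of 12 DREAM and MMB subunits fell and 2 rose. In PABP-bound RNA of U251, 0 genes of these 3 lists passed in either direction by edgeR, with 6 of 76, 12 of 47 and 2 of 11 at an unadjusted p under 0.05 for the other kinetochore, replication and DREAM and MMB lists, where 20.1% of all genes had one.

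Other genes moved with the mimic as well. All 12 interferon-stimulated genes rose in both assays of U251 and 11 of 12 rose in U343 RIPSeq. By edgeR 0 of 12 passed in U343 RNASeq, where 5 had an unadjusted p under 0.05 and the median log2 fold change was 5.59. The standard errors of these 12 genes were wide there, from 0.40 to 2.74, against 0.10 to 0.23 in U343 RIPSeq. The 5 glioma lineage markers fell in U251 RNASeq (median -1.25), where none rose, and 2 of them, NES and CD44, rose in U343 RNASeq (median 0.61), where GFAP measured -0.41 (edgeR adjusted p = 0.0517). In U343 RIPSeq NES rose by 1.37 and GFAP fell by 0.79 on the log2 scale, and in U251 RIPSeq 0 of the 5 passed by edgeR (median -0.88). Their part in the changes of the mitosis genes was not tested.

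The study's own calling rule was also applied to the counts. Each control library was set against each miR-137 library by a two-sided Fisher's exact test, and a gene had to pass an odds ratio of 2 and an adjusted p of 0.001 in each of the 4 pairings. Replicate spread does not enter this rule. By this rule 44 of the 54 genes were lower in U343 RNASeq (2.88% of all genes) and 44 in U343 RIPSeq (3.4% of all genes). Of these, 41 were lower in both assays, PLK4, INCENP and NCAPH in RNASeq alone and BIRC5, PTTG1 and FOXM1 in RIPSeq alone. The overlap of the assays by this rule was not counted over all genes. MELK, CDC25B, BUB3, CENPO, TACC3, CKAP5 and CKAP2, a spindle protein, were lower in neither. In U251 the rule named 0 of the 54 genes in RNASeq (2.21% of all genes) and 1 in RIPSeq (1.49% of all genes), CENPM.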

How the data were processed

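Total RNA (RNASeq) and PABP-bound RNA (RIPSeq) were measured in 16 libraries, 2 for each of 8 groups of cell line, assay and mimic. The authors mapped reads with RMAP to hg18 and deposited raw counts of reads per RefSeq gene, with the exons of a gene merged into one super-transcript. The deposited counts were used as they stand. One symbol listed on more than 1 line, SLC35E2, was kept once, and the strand column of the U251 tables holds a single value and was not used. A further U251 replicate named in the study's methods was not analysed here.

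Genes were tested with edgeR 4.0.16 (quasi-likelihood test, TMM scaling, filterByExpr) in R 4.3.3, with Benjamini-Hochberg adjustment over all genes tested and a threshold of 0.05. Each contrast of mimics, and each contrast of PABP-bound with total RNA, was fitted on its own 4 libraries, and each interaction on 8. The standard error (SE) printed with edgeR values is the absolute log2 estimate divided by the square root of the F statistic. It was not taken from the model directly. Alternatives were DESeq2 1.42.0 on all genes with at least 1 read, no filter, a filter of 50 reads on average, upper-quartile scaling, a replicate block, a joint fit of 8 libraries, leaving out each library, and the study's Fisher rule. Where 1 library was left in a group, it was assumed to vary like the other groups. The edgeR step was tested on simulated data. Replicate numbers are shared by the groups, but with 2 libraries a group and deviation correlations of 0.0327 to 0.279 they were not taken as pairs.

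The 54 genes and the other gene lists were chosen with earlier results of these data known. Genes were named by rule: 12 core genes, and the genes with the largest called changes in each comparison. Other genes illustrate a role or were named after their values were seen, such as those with the largest or smallest change of a group. The 3′ UTR sites of miR-137 were not searched here.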

Additional observations from a re-analysis of the deposited data

Results flagged for a closer look

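The change in total RNA differed between U251 and U343 for 47 of the 54 genes, tested as the interaction of transfection and cell line (edgeR, adjusted p under 0.05). All 47 were below 0, where 12.7% of all genes were below 0 and 12.5% above it. The genes named for this contrast were ESPL1, with an interaction of -2.24 on the log2 scale, and AURKA, with -1.78. In PABP-bound RNA the interaction passed for 7 genes, with AURKA at -1.64 and TOP2A at -1.62. Over all genes, 1.22% were below 0 and 2.06% above it. These 7 calls were lost with the replicate block, which left 0, where 0.338% of all genes were below 0. They also depended on which libraries were in the fit. With 1 library left out, the estimates ran from -2.04 to -1.37 for AURKA and from -1.99 to -1.37 for TOP2A. Cell line and cDNA kit cannot be told apart in these differences.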

How the results depend on the processing

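Most alternative values for single genes kept their direction and side of the threshold: 436 stayed, 69 no longer passed, 7 newly passed and 11 changed sign. Of the alternative counts of genes called, 150 stayed within a ratio of 1.5 of the reported count and 54 moved. Counts that stayed at 0 are among the 150. In U251 RNASeq, the count of lower genes was 2 in the joint fit of 8 libraries, 0 by the study's rule and 15 to 28 with 1 library left out. The count of higher genes there was 1 with DESeq2, 0 without the filter, 5 with upper-quartile scaling, 0 in the joint fit, 0 by the study's rule and 0 to 3 with 1 library left out. In U251 RIPSeq, the count of lower genes was 1 with DESeq2, 1 with the replicate block, 6 in the joint fit, 1 by the study's rule and 0 to 46 with 1 library left out, and that of higher genes 0 to 26. In U343 RNASeq, 0 to 54 genes were lower with 1 library left out. For the interaction with assay, DESeq2 gave 1 gene below 0 in U251 and 1 in U343, and leaving out 1 library gave 0 to 13 below and 0 to 29 above in U251, and 0 to 6 below and 0 to 6 above in U343. For the interaction with cell line, leaving out 1 library gave 34 to 49 genes below 0 in RNASeq. In RIPSeq it gave 0 to 50 below and 0 to 2 above, DESeq2 gave 16, no filter 3 and the replicate block 0. For PABP-bound against total RNA in U251, the lower count was 9 with DESeq2, 0 without the filter, 13 with the replicate block and 1 to 36 with 1 library left out, and the higher count 2, 0 and, with 1 library left out, 0 to 14. In U343 leaving out 1 library gave 13 to 18 lower and 8 to 10 higher. The number of all genes called moved with the setting too. The RIPSeq interaction with cell line was below 0 for 195 of 15959 genes in the main fit. It was below 0 for 650 of 20031 with DESeq2, 162 of 20031 without the filter and 54 of 15959 with the replicate block. In U251 RIPSeq 37 of 14087 genes fell in the main fit and 1213 of 14210 in the joint fit. A change in a count above is therefore not by itself specific to the 54 genes. Counts in this paragraph that stand without a share of all genes were not compared with one. With the replicate block CCNB1 and CDC20 passed in U251 RNASeq, and AURKA and TOP2A did not pass in the RIPSeq interaction with cell line. Values that changed sign were near 0 in U251 RNASeq. AURKB was 0.10 with upper-quartile scaling, 0.030 with the filter of 50 reads and -0.21 to 0.11 with 1 library left out. MAD2L1 was -0.0079 with DESeq2, -0.018 without the filter and -0.13 to 0.20 with 1 library left out. FOXM1 was 0.13 with upper-quartile scaling, 0.059 with the filter of 50 reads, 0.0039 in the joint fit and -0.049 to 0.026 with 1 library left out. The cause of these changes was not tested.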
